A study of Mus musculus with 10 samples.

Results

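Krüppel-like factors were followed in lung tumours of mice by counting the polyadenylated transcripts of 10 members of the family, Klf2, Klf3, Klf4, Klf5, Klf6, Klf7, Klf9, Klf10, Klf11 and Klf13, out of 39017 genes in the count files. The 10 genes were chosen by their symbols and with results of the Control against Glut1-KO contrast already known, Klf2 first among them, so their differences between these 2 groups are given here as a description, with no p-value, and counts of members called stand only beside the share of all genes called. All 10 passed the filter on low counts. The Control group was 5 libraries of tumours from male C57BL/6 mice of the KP model, which carry a K-rasLSL-G12D allele (an oncogenic K-ras behind a loxP-flanked stop) and p53Fl/Fl alleles. The Glut1-KO group was 5 libraries from KPG1 mice, with the same alleles plus Glut1Fl/Fl, replicates 1 to 3 from females and replicates 4 and 5 from males. Both groups received the adenovirus Ad5CC10-Cre through the trachea, which drives Cre recombinase in airway cells that use the promoter of the club cell protein CC10, and tumours of both were dissected, dissociated and depleted of CD45-positive (immune) cells 20 weeks and 1 day later. The genotype label of the controls reads heterozygous for the floxed Glut1 allele, whereas the design text calls them wild type, so the groups may differ by 1 or by 2 floxed copies.

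Krüppel-like factors are transcription factors that bind GC-rich boxes and CACCC motifs with C2H2 zinc fingers at their carboxyl end. They differ in the rest of the protein, which recruits coactivators or corepressors, so that related members can switch the same promoters on or off. Several are short-lived transcripts that cells make within minutes of serum, shear stress, cytokines or tissue handling. In lung, Klf2 is known from endothelium and quiescent lymphocytes, Klf5 from the alveolar and airway epithelium, and Klf4 and Klf6 from many cell types, often as brakes on growth.

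Depth was similar across libraries, with 35.3 to 49.8 M counts (M, mega), and levels are given as counts per M scaled by the TMM method (CPM). The deleted gene did not separate the groups. Slc2a1, which encodes Glut1, had 118, 86.7, 92.6, 103 and 73.2 CPM in Control replicates 1 to 5 and, in the libraries labelled Glut1-KO, 60.3, 42.5 and 34.6 CPM for the females and 92.4 and 103 CPM for the males, a log2 fold change of -0.62 (SE 0.29, limma adjusted p = 0.658). The 3 female libraries were below every control and the 2 male libraries were inside the control range, and whether counts fall on the deleted exons cannot be read from gene totals, so the group is called by its label throughout. Epithelial markers were present in every library (Epcam at 352 to 619 CPM, the lung factor Nkx2-1 at 132 to 277 CPM), and Ptprc, which encodes CD45, was at 2.3 to 3.26 CPM in controls and 5.05 to 10.1 CPM in Glut1-KO libraries. All controls were male and the deposited names carry a second number, which may stand for the animal although no label says so. The 5 controls carry 2 such numbers. The 3 female Glut1-KO libraries carry 1 each and both male libraries share 1, so the males may be 1 mouse. Sex, animal and genotype can thus be told apart only in part, and SDs, SEs and p-values measure the spread between these libraries. If the numbers mark animals, the 5 controls are from 2 mice and that spread is in part a spread within animals.

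Among the 10 factors, the 3 with the highest level per exon length, Klf6, Klf4 and Klf2, were also those with the lowest ratios of Glut1-KO to Control means, from 0.495 to 0.543. Klf2 held that place only after division by length, since in CPM only Klf11 had a lower control mean. Klf2 had 49.4, 48.8, 51.6, 44.0 and 62.6 CPM in Control replicates 1 to 5 and 25.7, 26.8, 32.4, 20.2 and 21.7 CPM in Glut1-KO replicates 1 to 5. Every Glut1-KO library was below every control, and both males were the lowest. The means were 51.3 ± 6.93 and 25.4 ± 4.76 CPM (SD, n = 5), which put Klf2 at -1.02 on the log2 scale (SE 0.15), a ratio of means of 0.495. Klf2 (ENSMUSG00000055148, GRCm38 chr8:72319033-72321656, plus strand, exon length 1847 bases) overlaps 0 other annotated genes, and 660 to 2631 of its counts were collected per library. In endothelium it is switched on by laminar flow through the kinase Mapk7 and MEF2 factors, and in T cells it maintains quiescence.

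Klf6, known as a growth-restraining factor and as one induced by tissue injury, was the most abundant member. It had 508, 697, 437, 448 and 588 CPM in the controls and 288, 408, 330, 228 and 201 CPM in the Glut1-KO libraries. The groups did not overlap, although the highest Glut1-KO library, replicate 2, came close to the lowest control. The means were 536 ± 108 and 291 ± 82.7 CPM (SD, n = 5), a ratio of 0.543 and a log2 fold change of -0.90 (SE 0.21). Klf6 (ENSMUSG00000000078, GRCm38 chr13:5861482-5870394, plus strand) rested on 7419 to 37529 counts per library.

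Klf4, one of the reprogramming factors and a regulator of epithelial differentiation, had 218, 95.4, 181, 155 and 173 CPM in the controls and 95.3, 79.3, 74.6, 95.7 and 75.0 CPM in the Glut1-KO libraries. One control, replicate 2, was at the Glut1-KO level, and 4 of the 5 Glut1-KO libraries were below every control. The means were 164 ± 44.9 and 84.0 ± 10.7 CPM (SD, n = 5), a ratio of 0.511 and a log2 fold change of -0.93 (SE 0.20). The spread of Klf4 was wider among controls than among Glut1-KO libraries, with coefficients of variation of 27.3% and 12.7%. The gene (ENSMUSG00000003032) lies at GRCm38 chr4:55527143-55532466 on the minus strand.

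**Figure D1:**
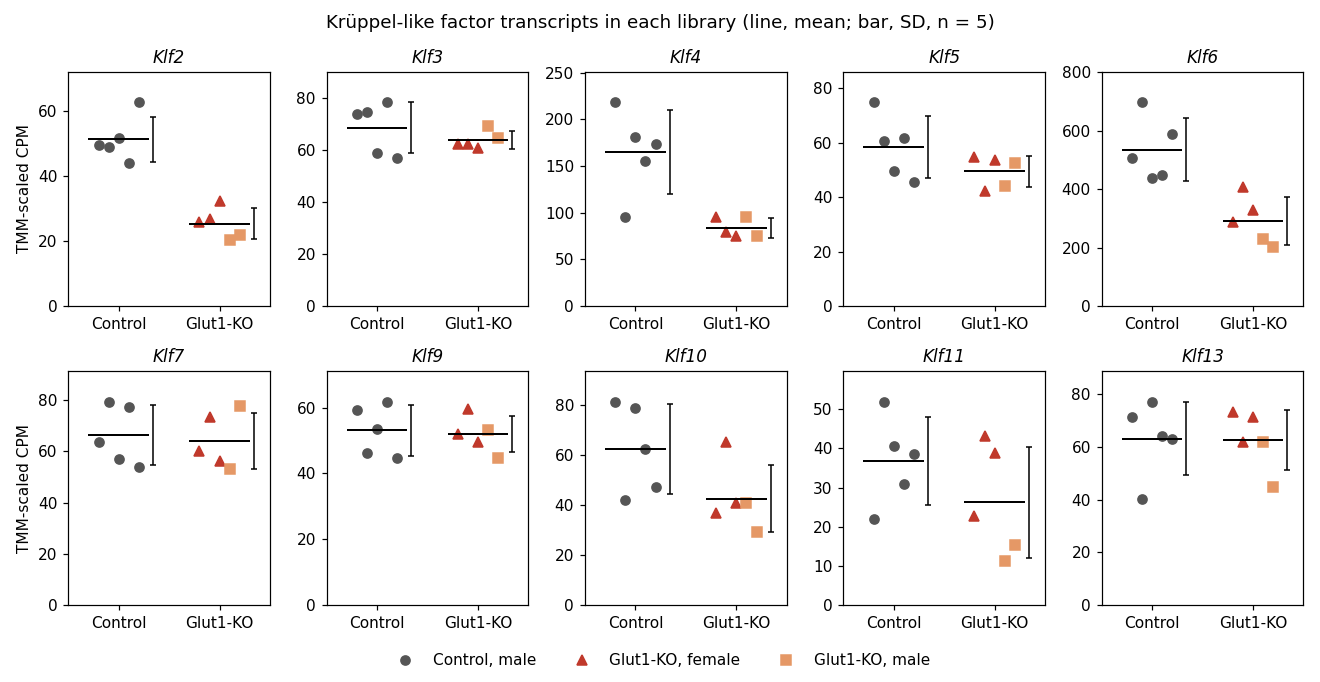
Level of each of the 10 Krüppel-like factors in TMM-scaled CPM (vertical axis), 1 point per library, with the group mean (line) and SD (bar, n = 5) and the sex label shown by shape. Klf2 runs from 44.0 to 62.6 CPM in controls and from 20.2 to 32.4 CPM in Glut1-KO libraries with no overlap, Klf6 does not overlap either, and the Glut1-KO range of Klf13, 44.8 to 73.2 CPM, lies within that of the controls, 40.4 to 77.1 CPM.

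Since Klf2, Klf4 and Klf6 were lower side by side, their promoter sequences are shown. They come from RefSeq (GRCm38.p6), from base -200 to base -51 before the annotated start, 5′ to 3′ on the strand of the gene. Capitals mark a GC box (GGGCGG on either strand, the core bound by KLF and SP factors) or, in Klf2 alone, a MEF2 site.
Klf2 (chr8:72318862-72319011, plus strand): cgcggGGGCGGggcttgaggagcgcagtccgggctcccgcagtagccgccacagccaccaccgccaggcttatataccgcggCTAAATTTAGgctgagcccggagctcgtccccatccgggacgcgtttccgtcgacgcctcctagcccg
Klf4 (chr4:55532526-55532675, minus strand): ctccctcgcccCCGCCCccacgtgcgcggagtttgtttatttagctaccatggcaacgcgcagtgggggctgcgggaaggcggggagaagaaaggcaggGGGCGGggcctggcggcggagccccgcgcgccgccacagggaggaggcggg
Klf6 (chr13:5861289-5861438, plus strand): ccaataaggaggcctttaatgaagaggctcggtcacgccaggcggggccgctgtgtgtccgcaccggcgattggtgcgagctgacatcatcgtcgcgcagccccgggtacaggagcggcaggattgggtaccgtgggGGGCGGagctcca

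The same search, on both strands, covered the 300 bases from 250 before to 50 after the start of 8 of the 10 members. Klf5 and Klf10 were not searched. A GC box was found in 7 of the 8, with 2 in Klf2, 4 in Klf4, 1 in Klf6, 6 in Klf3, 1 in Klf7, 4 in Klf11 and 3 in Klf13, against 35.7% of all 32851 promoter windows that hold at least 1. These windows were also GC-rich, with 58.3% to 77.7% G and C for the members against a median of 52.7%. CACCC motifs were found in Klf2 (1), Klf3 (5), Klf7 (3), Klf9 (1) and Klf13 (1) and not in Klf4, Klf6 or Klf11, and 57.5% of all windows hold 1 or more. The MEF2 site of Klf2, at bases -118 to -109, was the only match to that motif among the 8, and 3.19% of all windows hold a match. CCAAT was found in Klf6 (4), Klf9 (3), Klf11 (2) and Klf13 (2), against 37.4% of windows. The letters TGACGTCA, bound by CREB, and the CArG box, bound by serum response factor, were in none of the 8 windows and in 1.79% and 1.63% of all windows. The members with a GC box were Klf2, Klf4, Klf6 and Klf11 (log2 fold change -0.60, SE 0.36), and Klf3, Klf7 and Klf13, with fold changes within their SE of 0. Klf9, searched and without a GC box, was at -0.02 (SE 0.13). The part of these motifs in the levels was not tested.

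The TGF-β-inducible pair Klf10 and Klf11, repressors that recruit the corepressor Sin3a, varied more between libraries. Klf10 had 81.3, 42.1, 78.9, 62.4 and 47.3 CPM in the controls and 36.9, 65.0, 40.8, 40.8 and 29.3 CPM in the Glut1-KO libraries. One Glut1-KO library, replicate 2, lay in the middle of the controls and the other 4 were below all of them. The means of 62.4 ± 17.8 and 42.6 ± 13.4 CPM (SD, n = 5) gave a log2 fold change of -0.55 (SE 0.24). Klf11 had 22.1, 51.9, 40.7, 30.9 and 38.5 CPM in the controls and 22.7, 43.1, 38.7, 11.3 and 15.3 CPM in the Glut1-KO libraries. Its groups overlapped widely, with the female libraries inside the control range and both male libraries below it. The log2 fold change was -0.60 (SE 0.36), and the coefficient of variation among Glut1-KO libraries, 53.7%, was the highest of the 10 members.

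Klf5, which acts in proliferating epithelium, had 74.8, 60.8, 49.6, 61.6 and 45.4 CPM in the controls and 54.9, 42.2, 53.5, 44.2 and 52.4 CPM in the Glut1-KO libraries. Only 2 Glut1-KO libraries were below every control, and the log2 fold change was -0.22 (SE 0.15). The remaining 4 members had fold changes within their errors of 0. For Klf3, a repressor that binds CtBP, levels were 57.0 to 78.3 CPM in controls and 60.8 to 69.4 CPM in Glut1-KO libraries (log2 fold change -0.09, SE 0.12). Klf7, known from neurons and adipocytes, spanned 53.7 to 79.3 and 53.1 to 77.6 CPM (-0.04, SE 0.15). Klf9, a glucocorticoid- and thyroid hormone-inducible factor, spanned 44.6 to 61.8 and 44.8 to 59.7 CPM (-0.02, SE 0.13). Klf13, a repressor related to Klf9, spanned 40.4 to 77.1 and 44.8 to 73.2 CPM (0.00, SE 0.19). Klf3, Klf7, Klf9 and Klf13 overlap other annotated genes on the same or the opposite strand (2, 3, 1 and 2 genes), and whether the counting used strand is not stated, so part of their counts may belong to the neighbours.

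In sum over the family, 9 of the 10 members had a fold change below 0, where 50.7% of the 15922 genes tested did, and the median was -0.39 against 0.00 for all genes. The groups did not overlap for 2 members, Klf2 and Klf6, both lower in Glut1-KO libraries, a pattern that 1.06% of all genes show. At an adjusted p of 0.05 limma called 0 members and 0% of all genes. At an unadjusted p of 0.05 it called 4 members (Klf2, Klf4, Klf6 and Klf10), all lower, and 4.02% of all genes in that direction. DESeq2 called Klf2, Klf4 and Klf6 lower at an adjusted p of 0.05, with 0.676% of its genes called in that direction, and the edgeR quasi-likelihood test called 0 members and 0 of all genes (4 members and 1409 genes unadjusted). Since this contrast entered the choice of members, these counts describe them and are not evidence about the family.

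Levels were then divided by exon length to compare members with each other, as CPM per kb of exon. The length joins all annotated exons of a gene in GENCODE M21, and the transcripts present may be shorter. Before the division Klf2 had a control mean of 51.3 CPM, below Klf3 (68.5 CPM) and every other member except Klf11 (36.8 CPM). The order below therefore depends on the lengths used. In controls Klf6 stood at 122 ± 24.6, Klf4 at 53.9 ± 14.7 and Klf2 at 27.8 ± 3.75 CPM per kb (SD, n = 5). Klf6 was above Klf4 in every pairing of control libraries, whereas the Klf4 and Klf2 ranges overlapped through the 1 control low in Klf4, even though Klf4 was the higher of the pair within each of the 5 libraries. Klf10 followed at 14.9 ± 4.26 CPM per kb, apart from Klf2. The other 6 lay between 11.2 (Klf5) and 6.1 (Klf3) CPM per kb, each overlapping its neighbours in the order. In Glut1-KO libraries the first 3 places were the same, at 66.3 ± 18.8, 27.5 ± 3.5 and 13.7 ± 2.58 CPM per kb, with no overlap between neighbours. Klf2 there came within reach of the next gene, Klf9 at 10.8 CPM per kb, and was above it in 4 of the 5 libraries. The sum over the 10 members was 289, 281, 258, 248 and 283 CPM per kb in the controls and 169, 202, 178, 147 and 133 CPM per kb in the Glut1-KO libraries. Klf2, Klf4 and Klf6 made up 71.1% to 79.4% of that sum in controls and 61.6% to 66% in Glut1-KO libraries, and the other 7 together came to 58.2 to 75.1 and 51.2 to 68.8 CPM per kb. The lower total therefore sat mainly in these 3 genes.

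**Figure D2:**
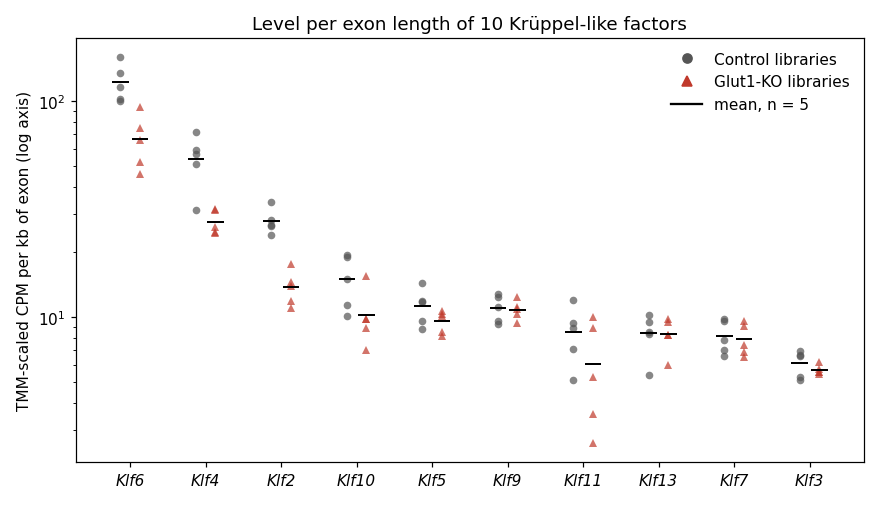
TMM-scaled CPM per kb of exon (log axis) of the 10 factors, ordered by their control mean, with 1 point per library and the group mean as a line (n = 5). Klf6, Klf4 and Klf2 lead in both groups, at 122, 53.9 and 27.8 in controls and 66.3, 27.5 and 13.7 in Glut1-KO libraries, and each of the 6 genes from Klf5 to Klf3 overlaps its neighbours in the control order.

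Female and male Glut1-KO libraries were compared next, since this contrast was not used to choose the members. It had 3 female and 2 male libraries, the males sharing 1 name number. If that marks 1 mouse, the spread of the male pair is not a spread between animals and the p-values of this contrast are too small. Sex cannot be told apart from animal or from the Slc2a1 level, which averaged 45.8 ± 13.1 CPM in the females (SD, n = 3) and 97.6 ± 7.4 CPM in the males (SD, n = 2). In females 7 members were higher and 3 lower (51% of all genes were higher), with a median log2 difference of 0.26 against 0.01 over all genes. Limma called 0 members at an adjusted p of 0.05, against 0.0502% of all genes (8 genes), and 2 members, Klf6 and Klf11, at an unadjusted p of 0.05, where 8.68% of all genes passed in that direction. Female libraries were above both males without overlap for Klf2, Klf6 and Klf11, as for 20.6% of all genes, and below both without overlap for Klf3, at 60.8 to 62.5 against 64.7 and 69.4 CPM, as for 20.3% of all genes.

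Klf11 differed most, with 22.7, 43.1 and 38.7 CPM in females and 11.3 and 15.3 CPM in males. The log2 difference was 1.33 (SE 0.44, limma adjusted p = 0.174), whereas DESeq2 gave 1.39 with an adjusted p of 0.0116 and called 3.48% of its genes higher in females. Over the other alternatives the adjusted p of Klf11 was 0.102 to 0.458, in limma and in the edgeR quasi-likelihood test, which called 12 genes and 0 members. The highest of these, 0.382 and 0.458, came from limma fits with 1 male library left, which is assumed to vary like the other groups. Klf6 averaged 342 ± 61.0 CPM in females and 215 ± 18.5 CPM in males, a difference of 0.66 (SE 0.22, limma adjusted p = 0.173). Klf2 averaged 28.3 ± 3.55 and 21.0 ± 1.04 CPM, a difference of 0.42 (SE 0.20, limma adjusted p = 0.279). Klf4 averaged 83.0 and 85.3 CPM in females and males, a difference of -0.03 (SE 0.30, limma adjusted p = 0.962). For the other 6 members the differences lay between -0.11 (Klf3) and 0.43 (Klf10), with limma adjusted p from 0.444 to 0.942.

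Set against all controls, the male Glut1-KO libraries gave log2 fold changes of -1.28 (SE 0.18) for Klf2, -1.30 (SE 0.20) for Klf6, -0.91 (SE 0.30) for Klf4, -0.81 (SE 0.32) for Klf10 and -1.42 (SE 0.39) for Klf11. These are comparisons within males, and the 4 genes Klf2, Klf6, Klf10 and Klf11 were lower without overlap there, as were 8.57% of all genes. Their SEs treat libraries that share a name number as independent, and are too small if that number marks a mouse. The female libraries gave -0.85 (SE 0.15) for Klf2, -0.63 (SE 0.19) for Klf6, -0.94 (SE 0.24) for Klf4, -0.38 (SE 0.28) for Klf10 and -0.08 (SE 0.31) for Klf11. There Klf2, Klf4 and Klf6 were lower without overlap, as were 5.41% of all genes. Both sets of values use the same 5 controls and are parts of the contrast by which the members were known. The lower Klf11 mean sat in the 2 male libraries. The 2 males had control-like Slc2a1 levels and the lowest Klf2 and Klf6 levels of all 10 libraries.

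**Figure D3:**
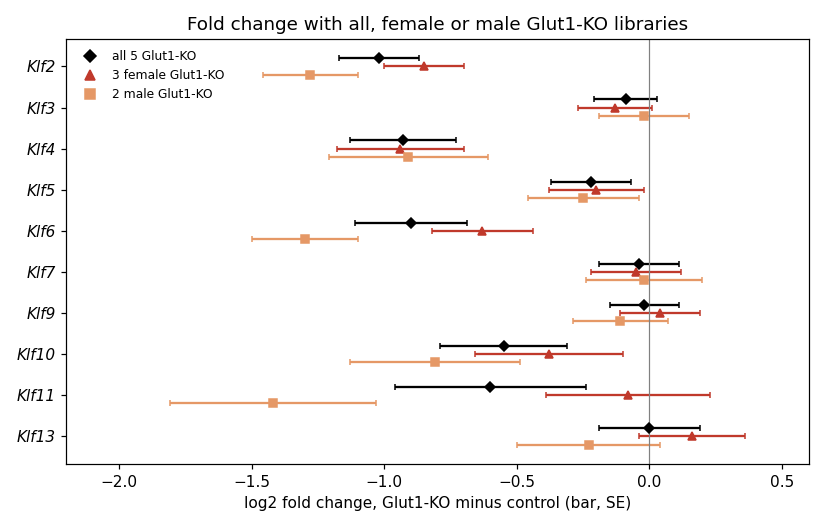
Log2 fold change (horizontal axis) of each factor against the 5 controls, for all 5 Glut1-KO libraries, the 3 female and the 2 male ones, with the SE as bar. Klf2 is at -1.02, -0.85 and -1.28, Klf4 is between -0.94 and -0.91 in all 3, and Klf11 is at -0.08 with the females and -1.42 with the males.

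The KLF and SP genes that were not chosen are given for their own levels. The choice was made with the contrast known, so they are no comparison group for the members. Of 16 further family genes in the files, 10 passed the filter, 5 with a fold change below 0 and 5 above it, with a median of 0.02. Limma called 0 of them at an adjusted and 0 at an unadjusted p of 0.05, and none was without overlap between the groups. The ubiquitous activators Sp1 and Sp3, which compete for the same GC boxes, were at 130 ± 7.44 and 138 ± 16.4 CPM (log2 fold change 0.08, SE 0.11, limma adjusted p = 0.88) and at 145 ± 15 and 160 ± 20.1 CPM (0.14, SE 0.11, limma adjusted p = 0.792) in Control and Glut1-KO libraries. Klf16, a repressor close to Klf13, had 26.5 ± 4.94 and 24.4 ± 1.8 CPM (-0.11, SE 0.14, limma adjusted p = 0.879). Sp2 had a fold change of -0.13 (SE 0.15, limma adjusted p = 0.854) and Sp4 one of 0.35 (SE 0.28, limma adjusted p = 0.784).

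Low-level relatives had fold changes with SEs of 0.29 to 0.62. Klf15, a metabolic factor induced by glucocorticoids and fasting, had 3.92, 2.04, 7.29, 4.76 and 8.22 CPM in the controls, 8.37, 4.30 and 10.8 CPM in female and 2.06 and 2.06 CPM in male Glut1-KO libraries. Its fold change was -0.03 (SE 0.55, limma adjusted p = 0.992), and the females were above the males by 1.83 (SE 0.67, limma adjusted p = 0.204). Klf12 (-0.75, SE 0.58, limma adjusted p = 0.778), Sp5 (-0.27, SE 0.43, limma adjusted p = 0.896), Sp6 (0.15, SE 0.29, limma adjusted p = 0.92) and Klf8 (0.10, SE 0.62, limma adjusted p = 0.981) had control means of 3.05 CPM or less. Klf1, Klf14, Klf17, Sp7, Sp8 and Sp9 did not pass the filter, and Klf14, Klf17 and Sp8 had 0 counts in all libraries.

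The genes upstream of Klf2 were examined as a list of 14, from the kinase cascade and MEF2 factors to the cerebral cavernous malformation proteins and Foxo factors. In this list 7 genes were lower and 7 higher, with a median of 0.00, and limma called 0 at an adjusted and 0 at an unadjusted p of 0.05. Mapk7, the kinase (ERK5) that activates MEF2 factors at the Klf2 promoter, had 27.0 ± 3.14 and 22.7 ± 3.88 CPM in Control and Glut1-KO libraries (-0.25, SE 0.14, limma adjusted p = 0.721), and Foxo1, an activator of Klf2 in lymphocytes, had a fold change of 0.38 (SE 0.21, limma adjusted p = 0.713). The summed level was 909 to 1020 CPM in controls and 953 to 1060 CPM in Glut1-KO libraries. Transcript levels do not show the activity of a kinase.

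Known targets of Klf2 in endothelium had fold changes of both signs. The counts and the median below take no account of whether Klf2 induces or represses a gene. Of 18, 17 passed the filter, with 6 lower, 11 higher and a median of 0.22, and limma called 0 at an adjusted p of 0.05 and 1 in each direction at an unadjusted p of 0.05, where 4.02% of all genes were lower and 3.66% higher. Edn1, which encodes the vasoconstrictor endothelin-1 and is repressed by Klf2, was at 24.5 ± 9.82 CPM in controls and 9.50 ± 3.98 CPM in Glut1-KO libraries (-1.35, SE 0.36, limma adjusted p = 0.404), and Angpt2, also repressed by Klf2, was at 3.20 and 5.44 CPM (0.72, SE 0.28, limma adjusted p = 0.608).

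The TGF-β list, the setting of Klf10 and Klf11, had 18 of 20 genes with a fold change below 0 and a median of -0.11. Limma called 0 at an adjusted p of 0.05 and 3 lower at an unadjusted p of 0.05 (4.02% of all genes), and 1 gene was lower without overlap (1.06% of all genes). That gene was Tgif1, a corepressor of Smad proteins, at 142 ± 14.6 and 106 ± 15.2 CPM (-0.44, SE 0.12, limma adjusted p = 0.419). Ctgf, a matricellular protein gene induced by TGF-β and YAP, was at 108 ± 38.3 and 43.2 ± 17.9 CPM (-1.35, SE 0.33, limma adjusted p = 0.363), and Smad3 had a fold change of -0.46 (SE 0.18, limma adjusted p = 0.592). Smad7, the direct Smad target most used as a readout, had one of -0.12 (SE 0.13, limma adjusted p = 0.842).

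Immediate-early genes, among which Klf2, Klf4 and Klf6 are often counted, came as a list of 23 others that cells induce within minutes of a stimulus, and also during dissociation of tissue. Of the 23, 22 had a fold change below 0, with a median of -0.41, and 11 were lower at an unadjusted limma p of 0.05 (4.02% of all genes), 6 of them without overlap (1.06% of all genes), while limma called 0 at an adjusted p of 0.05. The summed level was 8080, 7460, 9480, 7740 and 8670 CPM in the controls, 6750, 7230 and 7510 CPM in the females and 5220 and 4830 CPM in the males labelled Glut1-KO. As for Klf2, the males were lowest, but 1 female library was above 1 control. The 2 leading genes were Cyr61, with 207 ± 49.1 and 100 ± 7.32 CPM (-1.01, SE 0.16, limma adjusted p = 0.23), and Atf3, a stress-induced factor, with 310 ± 73.7 and 160 ± 20.7 CPM (-0.94, SE 0.17, limma adjusted p = 0.23). Fos (-0.28, SE 0.22, limma adjusted p = 0.78) and Egr1 (-0.26, SE 0.21, limma adjusted p = 0.789), the best known members, had smaller differences than Jun (-0.74, SE 0.19, limma adjusted p = 0.363) and Nfkbia (-0.62, SE 0.13, limma adjusted p = 0.314). Whether tissue handling has a part in the level of Klf2, Klf4 and Klf6 was not tested.

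The 5 genes most like Klf2 across the 10 libraries were listed. Likeness was measured as the root mean square difference of log2 CPM centred on each gene's own mean, with a median of 0.66 over all genes. The closest was Ppp1r15a (0.202), which encodes the stress-induced phosphatase subunit GADD34, at 200 ± 30.6 and 122 ± 29.7 CPM. It was followed by the small nucleolar RNA Snora31 (0.216, with only 41 to 155 counts per library), Jun (0.226), Adam1a (0.228, with 22 to 72 counts) and Klf6 (0.253). Among 15921 genes Klf6 thus took place 5, Klf4 place 67 (0.38) and Klf10 place 844 (0.48), while Klf7 took place 5637. The measure rewards a low spread as well as a shared pattern, and the libraries share the group difference by which the members were known.

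**Figure D4:**
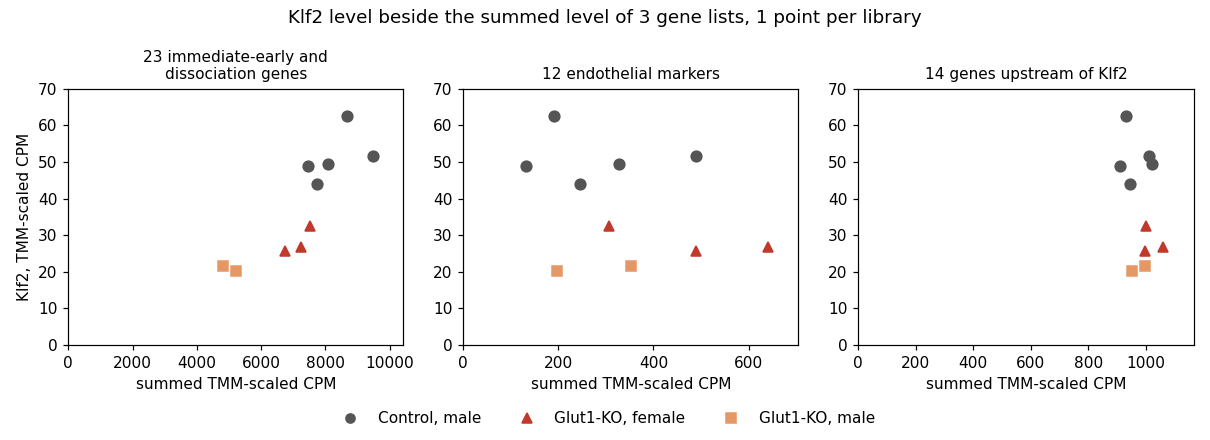
Klf2 level (vertical axis, TMM-scaled CPM) against the summed level of 23 immediate-early genes, 12 endothelial markers and 14 genes upstream of Klf2 (horizontal axes, summed TMM-scaled CPM), 1 point per library. The immediate-early sum was lower in most Glut1-KO libraries (4830 to 7510 against 7460 to 9480 CPM), whereas the endothelial sum is 198 to 641 CPM in Glut1-KO libraries and 133 to 489 CPM in controls.

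Glucocorticoid-induced genes, the setting of Klf9, were mixed, with 6 of 13 lower, 7 higher and a median of 0.01. Limma called 0 at an adjusted p of 0.05 and, at an unadjusted p of 0.05, 2 lower and 2 higher, where 4.02% and 3.66% of all genes passed. Sgk1, a kinase gene, was at 111 ± 55.1 and 44.5 ± 11.4 CPM without overlap (-1.24, SE 0.31, limma adjusted p = 0.369), and Fkbp5, a chaperone of the receptor, was at 17.7 ± 2.66 and 28.9 ± 8.15 CPM (0.66, SE 0.20, limma adjusted p = 0.454), so the 2 leading genes of the list had fold changes of opposite sign, beside -0.02 (SE 0.13) for Klf9. Partners of Krüppel-like factors, 20 coregulators and ubiquitin ligases, were also divided, 10 lower and 10 higher with a median of 0.00 and 0 called by limma (2 lower and 1 higher unadjusted, against the same shares of all genes). The histone deacetylase genes led it, with Hdac2 at 99.8 ± 13 and 77.8 ± 7.38 CPM without overlap (-0.36, SE 0.11, limma adjusted p = 0.482) and Hdac1 at 61.8 and 47.8 CPM (-0.37, SE 0.14, limma adjusted p = 0.574).

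Klf2 is a gene of endothelial cells and lymphocytes, so markers of other cells were set beside it. In bulk libraries fewer cells of a type and less RNA per cell cannot be told apart. All 12 endothelial markers had fold changes above 0, with a median of 0.64, and limma called 0 (1 higher unadjusted, where 3.66% of all genes were). Their summed level was 327, 133, 489, 246 and 191 CPM in the controls and 489, 641, 306, 198 and 353 CPM in the Glut1-KO libraries, so the groups overlapped, and the group with the lower Klf2 had the higher mean sum (397 against 277 CPM). Cldn5 had a fold change of 0.71 (SE 0.31, limma adjusted p = 0.643) and Egfl7 one of 0.47 (SE 0.26, limma adjusted p = 0.713).

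Of 12 leukocyte markers, 11 passed the filter, 8 with a fold change above 0 and 3 below it, a median of 0.88, 6 higher and 0 lower at an unadjusted limma p of 0.05 (3.66% of all genes were higher), and 5 higher and 0 lower without overlap (0.798% of all genes higher), with 0 called at an adjusted p of 0.05. Ptprc was at 2.76 ± 0.451 and 7.92 ± 2.19 CPM (1.47, SE 0.25, limma adjusted p = 0.23) and Fcer1g at 0.598 and 1.88 CPM (1.61, SE 0.31, limma adjusted p = 0.259), both without overlap. The sum, 984 to 11400 CPM in controls (mean 6560 CPM) and 1970 to 7920 CPM in Glut1-KO libraries (mean 3680 CPM), was carried by Lyz2, which alveolar type 2 cells also express, and without it was 30.5 to 36.7 and 38.1 to 68 CPM. The T-cell gene Cd3e had 0 to 10 counts per library and did not pass the filter. The B-cell gene Cd79a, with 6 to 68 counts, had means of 0.72 CPM in controls and 0.482 CPM in Glut1-KO libraries, with overlap. Both were near the floor, so the list says little about lymphocytes. The Glut1-KO group thus had the lower Klf2 beside fold changes above 0 for 12 of 12 endothelial and 8 of 11 leukocyte markers, and the part of these cells in the Klf2 level was not tested.

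Markers of the epithelial types and of mesenchyme overlapped between the groups, and limma called 0 in each list at an adjusted p and 0 at an unadjusted p of 0.05. Alveolar type 2 markers had 2 of 10 fold changes below 0 (median 0.23) and alveolar type 1 markers 3 of 8 (median 0.11). Club cell markers had 7 of 8 below 0 (median -0.75) and ciliated cell markers 7 of 7 (median -0.94), with summed levels of 2010 to 10400 and 1260 to 7430 CPM for club and 10.8 to 274 and 15.2 to 56.5 CPM for ciliated cells in Control and Glut1-KO libraries. Fibroblast and mural markers had 6 of 10 below 0 (median -0.15), and erythroid markers 4 of 5 (median -0.55). The 2 leading genes of each list had limma adjusted p from 0.658 to 0.854. They were Scgb3a2 (log2 fold change -1.33, SE 0.72) and Gabrp (-1.80, SE 1.01) for club cells, Foxj1 (-2.23, SE 1.03) and Dnah9 (-1.28, SE 0.83) for ciliated cells, Abca3 (0.39, SE 0.21) and Lyz1 (2.16, SE 1.20) for alveolar type 2 cells, Akap5 (0.51, SE 0.33) and Ager (0.46, SE 0.37) for alveolar type 1 cells, Myh11 (-1.04, SE 0.51) and Dcn (-0.34, SE 0.38) for mural cells and fibroblasts, and the globin genes Hbb-bs (-0.60, SE 0.47) and Hba-a2 (-0.68, SE 0.54). The part of the epithelial types in the levels of the factors was not tested.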

How the data were processed

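Polyadenylated RNA of 10 tumour libraries was analysed. The authors prepared stranded libraries, sequenced them single-end, and aligned reads to mm10 with HISAT2, and deposited raw read counts, 1 value per Ensembl gene and library. The submitters' processing notes also name cutadapt 1.4.2 and featureCounts 1.4.4. Whether counting used strand, and the annotation release, are not given in the sources used here. A deposited table of log2 values was not used. Depth was 35.3 to 49.8 M counts per library.

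The members and all gene lists, written from memory, were chosen with earlier results of these data known. Genes were kept by filterByExpr (edgeR 4.0.16, minimum count 10, minimum total 15), which left 15922. TMM factors and voom (prior count 0.5) gave log2 CPM values for limma 3.58.1 in R 4.3.3, following the methods of the study, with the group as the only term and Benjamini-Hochberg adjustment over all genes kept. Female and male Glut1-KO libraries were compared in a fit with 3 groups. CPM values carry the SD over libraries, and fold changes are log2 (Glut1-KO over Control) with the SE. Positions and exon lengths came from GENCODE M21 (GRCm38), in which 37607 genes (96.4%) were found, and promoters from RefSeq. The script was tested on simulated data. Named genes were all 10 members, the KLF and SP genes kept, the 2 genes of smallest limma p in each list, the 5 most like Klf2 and Slc2a1. Smad3, Smad7, Fos, Egr1 and Nfkbia were added as well-known genes of their lists after their values were seen. Alternatives were edgeR's quasi-likelihood test, DESeq2 1.42.0, other scalings and filters, quality weights, sex, the replicate block, summing by name number and leaving out each library.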

Additional observations from a re-analysis of the deposited data

Results flagged for a closer look

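Control replicate 2 had 49.8 M counts, and the other 4 controls had 40.1 to 41.4 M. Its gap to the next control, as a share of the range of the 5, was 0.863, above Dixon's limit of 0.71 for 5 values. It was the only 1 of 24 groups of values so checked, where chance marks about 1 in 20. The same library had the highest Klf6, Klf7 and Klf11 and the lowest Klf4, Klf10 and Klf13 levels among the controls. It also had the lowest control sums of alveolar type 2 (27400 CPM), club (2010 CPM) and ciliated cell markers (10.8 CPM). The same held for endothelial (133 CPM), leukocyte (984 CPM) and erythroid markers (237 CPM), whereas its fibroblast and mural sum, 435 CPM, was the highest. Without this library the log2 fold change of Klf2 was -1.03. Klf4 then joined Klf2 and Klf6 as a gene without overlap between the groups, lower in Glut1-KO libraries, as were 1.98% of all genes.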

How the results depend on the processing

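The count of genes called between Control and Glut1-KO libraries was 0 with limma and 215 with DESeq2 (105 lower and 110 higher), 3 with sex as a covariate, 1 in males alone, 9 with the female Glut1-KO libraries against all controls and 2 with libraries summed by name number. Leaving out single libraries gave 0 to 1 (the 1 without Control replicate 3). Replicate numbers did not pair the samples (correlations of deviations from -0.13 to 0.20), and with the replicate block 0 genes were called and Klf2 stood at -1.02. With libraries summed by name number, which left 2 Control and 4 Glut1-KO sums, Klf2 stood at -0.93 (SE 0.19). The count between female and male Glut1-KO libraries was 8 with limma, 1196 with DESeq2 and 6 to 12 elsewhere. Of 219 alternative fold changes of the members, 213 moved by less than the replicate SD. The other 6 were those with sex as a covariate and in males alone, which gave -1.28 for Klf2, -1.30 for Klf6 and -1.42 for Klf11 under both. These are the same comparison. All controls were male, so with the sex term the group difference rests on the male Glut1-KO libraries only. Klf2 stayed between -1.11 and -0.94 without single libraries, Klf6 between -1.03 and -0.77, Klf4 between -1.11 and -0.82, Klf10 between -0.72 and -0.42 and Klf11 between -0.82 and -0.37. The members lower without overlap numbered 4 in males alone (8.57% of all genes), 3 with the female Glut1-KO libraries against all controls (5.41%) and 2 to 3 without single libraries, where 1.31% to 2.37% of all genes were so (Klf4 joined without Control replicate 2 or Glut1-KO replicate 4, Klf10 without Glut1-KO replicate 2). These counts of members, and the leukocyte sum without Lyz2, were added after seeing the data. A filter at a mean TPM of 20 removed Klf3. The members below 0 numbered 7 to 10 of 10 (8 of 9 with the TPM filter), as the signs of Klf7, Klf9 and Klf13, all near 0, changed with the setting. The causes were not tested.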
